A study of Pyrus betulifolia with 6 samples.

Results

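Chitinases, glucan endo-1,3-beta-glucosidases, thaumatin-like proteins, osmotins, germin-like proteins and pathogenesis-related protein 1 are protein families that include secreted defence proteins. They are described here in root tips of the pear rootstock Pyrus betulaefolia under boron (B) deficiency. Members were every gene whose description in the deposited annotation contains chitinase, thaumatin, osmotin, glucan endo-1,3-beta, germin or pathogenesis-related protein 1, whatever its expression. The rule found 190 genes among the 37815 genes listed. They were 28 chitinases, 34 thaumatin-like proteins and osmotins, 73 glucan endo-1,3-beta-glucosidases (glucanases), 44 genes with germin in the description and 11 pathogenesis-related proteins 1. The families were treated apart. In the text below, every member is given by the description of the annotation, which comes from sequence similarity.

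Plants raised from seed and of the WT genotype were grown in nutrient solution, and root tips were taken after 24 h. The B deficiency group received 0 mM B and the control group 0.045 mM B, and nothing else is named as differing between them. RNA-seq was performed on 3 libraries per group, which the labels name as biological replicates, and plants grew several to a box. The labels do not say whether the root tips of a replicate came from 1 plant or from several, so p-values measure the spread between these libraries. The paper's methods name mapping of the reads to another pear species, P. bretschneideri, and estimation of expression by RSEM. Close gene copies share reads in such an estimate, so the values of single members of these large families carry that uncertainty.

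Chitinases cut chitin, the polymer of fungal cell walls and insect cuticles, and glucanases cut beta-1,3-glucans, which occur in fungal walls and, as callose, in plant walls and at plasmodesmata. Thaumatin-like proteins and osmotins are small secreted proteins, many of which act against fungi or accumulate under osmotic stress. Germin-like proteins have a cupin fold, sit in the cell wall and include oxalate oxidases and superoxide dismutases. Pathogenesis-related protein 1 belongs to the CAP proteins and is used as a marker gene of salicylic acid signalling in Arabidopsis. Several chitinase-like proteins that do not act in defence, among them chitinase-like protein 1 of Arabidopsis, take part in cell wall formation. B itself cross-links the pectin rhamnogalacturonan II in the primary wall. In the deposited annotation, 40 of the 44 germin members carried the terms apoplast and manganese ion binding, 12 chitinases and 6 pathogenesis-related proteins 1 carried defense response, and 151 of the 190 members had no pathway.

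The values are FPKM, that is, fragment numbers scaled for transcript length and for the mapped fragments of the library, so levels can be compared between genes. The FPKM values summed to between 951246 and 971102 per library, and the depth relative to B deficiency library 1, read from the steps of low values in 8 to 21 genes, was between 1.00 and 1.13. B deficiency library 2 stood apart, since its Pearson correlation with B deficiency libraries 1 and 3 across tested genes was 0.960 and 0.962, whereas every pair of control libraries gave 0.976 (log2 scale). Of the 11 genes with descriptions of root tip regulators, 10 were tested and 0 were called, with 1 at an adjusted p under 0.05 being SHORT-ROOT-like LOC103945756. PLT2, LOC103963467, a regulator of the root meristem, had 29.3, 30.4 and 28.4 FPKM under B deficiency against 32.5, 32.7 and 32.7 FPKM in the controls. The summed FPKM of the root tip list was 81.2 to 89.3 in B deficiency and 97.2 to 101 in the control. The root hair list of 7 genes, chosen by description only, summed to between 153 and 190 FPKM under B deficiency and between 202 and 205 FPKM in the controls. LOC103961651, described as ROOT HAIR DEFECTIVE 3 2-like, made up 40.3% of this sum. In the list 1 gene was higher and 3 were lower without overlap, beside 18.5% and 26.6% of all genes tested. The xylem list of 2 genes summed to between 56.9 and 79.0 FPKM under B deficiency and between 87.6 and 91.6 FPKM in the controls. B deficiency library 2 was the lowest library in the root hair and xylem lists. In the endodermis list of 52 genes, 41 were tested, and 2 were called higher and 2 lower, beside 8.19% called over all genes tested. The median log2 fold change of this list was -0.02. It summed to between 669 and 724 FPKM under B deficiency and between 679 and 701 FPKM in the controls, with overlap. Of 72 genes of photosynthesis, 8 were listed at 0 in every library, 34 were tested and 8 of these were called lower and 0 higher, while 3.83% of all genes tested were called lower. A RuBisCO small chain, LOC103928816, which made up 78.5% of the summed FPKM of this list, was present at 505 to 580 FPKM under B deficiency and 504 to 539 FPKM in the controls. All these lists were chosen by description, and a name such as ROOT HAIR DEFECTIVE 3 does not show that a gene marks root hairs. Whether the listed genes mark a cell type was not tested. In bulk tissue fewer cells of a type and less RNA per cell cannot be told apart, and the part of these lists in the results that follow was not tested.

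Of the 190 members, 43 were listed at 0 FPKM in all 6 libraries, 29 had a value but a mean under 0.5 FPKM, and 118 were tested. Log2(FPKM + 0.1) was fitted with limma over all 28129 genes whose mean reached 0.5 FPKM. A gene was called when its log2 fold change was 1 or more in size and its adjusted p was under 0.05. Since 0.1 is added before the logarithm, fold changes of genes with low FPKM come out too small. Among all genes tested, 8.19% were called, 4.37% as higher and 3.83% as lower in B deficiency. Of the 118 members tested, 11 were called, which is 9.32% and close to the share over all genes. Of these, 10 were higher and 1 was lower. Among the called members, LOC103936532 and LOC125476490 passed the minimum of 0.5 FPKM only through B deficiency, and LOC103929737 only through the controls. Without the minimum fold change, 23 members were higher and 17 lower at an adjusted p under 0.05, while 27.3% of all genes tested passed this in either direction. In 34 members the lowest B deficiency library lay over the highest control library, and in 25 members the highest lay below the lowest control library, whereas over all genes tested 45.1% did not overlap, 18.5% higher and 26.6% lower. The 5 families differed in what they contributed, with 5 of 17 chitinases, 1 of 26 thaumatin-like proteins and osmotins, 2 of 55 glucanases, 3 of 17 germin members and 0 of 3 pathogenesis-related proteins 1 called. The median log2 fold change was 0.56 for the chitinases, 0.12 for the thaumatin-like proteins and osmotins, 0.00 for the glucanases, -0.02 for the germin members and -0.49 for the pathogenesis-related proteins 1, beside -0.05 over all genes tested.

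**Figure D1:**
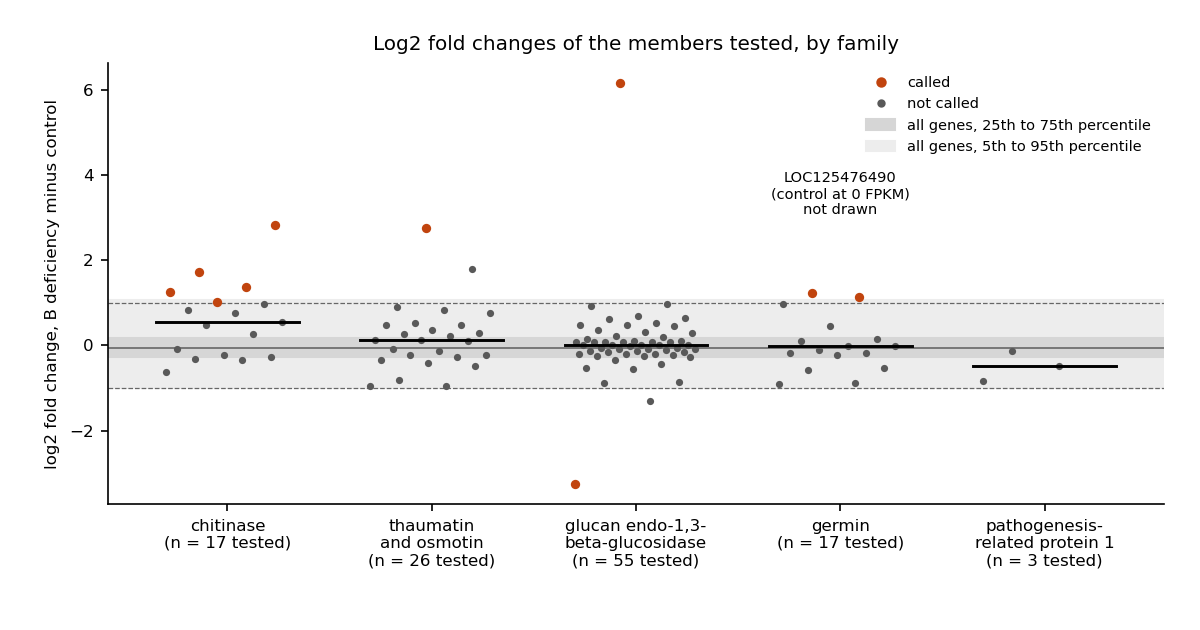
Log2 fold changes of the members tested, B deficiency minus control on the log2(FPKM + 0.1) scale, by family, with a horizontal bar at each family's median. Grey bands hold the middle range of all 28129 genes tested and dashed lines mark the minimum fold change. Chitinases lie mostly above 0, most glucanases lie near 0, and LOC103940050 stands alone at 6.15. LOC125476490, a germin-like gene listed at 0 in every control library, is not drawn, but counts in the median of its family.

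In B deficiency 5 of the 17 chitinases tested rose, and 0 fell, while 4.37% of all genes tested were called higher. LOC103936532, counted among the 5, passed the minimum of 0.5 FPKM only through B deficiency. The count was 4 without B deficiency library 2 or control library 2, 3 without B deficiency library 1, B deficiency library 3 or control library 1, 2 without control library 3 and 3 with a pseudocount of 1. Chitinases fall into 2 unrelated enzyme families, GH19 and GH18, and some GH19 enzymes carry a chitin-binding domain in front of the catalytic domain. Of the 28 members, 12 had a GH19 domain, 4 of them with a chitin-binding domain, 15 had a GH18 domain and 1 had neither.

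All 4 GH19 chitinases with a chitin-binding domain were tested, 3 of them rose, and in all 4 the libraries of the groups did not overlap, whereas over all genes tested 18.5% were higher without overlap. LOC103936532, in both counts, passed the minimum of 0.5 FPKM only through B deficiency (mean 1.61 FPKM, control 0.437 FPKM). The minimum thus favoured its rise, which adds nothing to this comparison. Together the 4 genes summed to 131, 68.4 and 134 FPKM in B deficiency libraries 1 to 3 and to 48.8, 36.4 and 28.2 FPKM in the controls. The endochitinase-like gene LOC103936531 had 25.4, 14.5 and 25.6 FPKM under B deficiency against 3.70, 2.56 and 2.63 FPKM in the controls. Every B deficiency library was thus far above every control library, although library 2 reached only 56.9% of the mean of libraries 1 and 3. The mean was 21.8 ± 6.34 FPKM under B deficiency and 2.96 ± 0.639 FPKM in the controls (SD, n = 3 each), with a log2 fold change of 2.81 ± 0.246 (SE) and a limma adjusted p of 0.000283. It was called with each library left out in turn, at log2 fold changes between 2.68 and 3.08.

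The class IV chitinase LOC103957750 was the most abundant of the 3, with 98.6, 48.0 and 102 FPKM under B deficiency and 41.9, 29.6 and 22.6 FPKM in the controls. The groups did not overlap, but B deficiency library 2 lay near control library 1. Its log2 fold change was 1.37 ± 0.328 (SE, limma adjusted p = 0.0202). The call was lost without B deficiency library 1 (adjusted p = 0.0697), B deficiency library 3 (0.0663), control library 2 (0.0717) or control library 3 (0.0764), with a log2 fold change of at least 1.16 in each case. The endochitinase-like gene LOC103936532 was low, with 1.97, 0.86 and 2.00 FPKM under B deficiency against 0.16, 0.69 and 0.46 FPKM in the controls. Here too library 2 was the lowest B deficiency library and lay close to the highest control, and the gene passed the minimum of 0.5 FPKM only through B deficiency. The log2 fold change was 1.73 ± 0.509 (SE, limma adjusted p = 0.0428), and the call was lost in 4 of the 6 fits with a library left out, namely without B deficiency library 1 or 3 or control library 1 or 3 (adjusted p between 0.0927 and 0.127). The remaining member of the group, LOC103929599, was chosen after its values were seen and had 5.0, 5.01 and 3.58 FPKM under B deficiency and 3.08, 3.52 and 2.52 FPKM in the controls (log2 fold change 0.56, limma adjusted p = 0.0653).

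Of the 8 GH19 members without a chitin-binding domain, 6 were tested and 1 rose. This was the endochitinase EP3-like gene LOC103957707, with 25.8, 29.3 and 27.8 FPKM under B deficiency and 12.3, 11.03 and 11.6 FPKM in the controls. Its libraries were tight in both groups, library 2 was not low, and the mean was 27.7 ± 1.75 FPKM under B deficiency and 11.6 ± 0.616 FPKM in the controls (SD, n = 3 each). The log2 fold change of 1.24 ± 0.0772 (SE) had a limma adjusted p of 7.2e-05, and the call held with each library left out. A further EP3-like gene, LOC103957725, chosen after its values were seen, had 20.4, 30.6 and 15.9 FPKM under B deficiency and 11.2, 14.5 and 10.5 FPKM in the controls, and missed the minimum fold change (0.84, limma adjusted p = 0.0362).

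The GH19 group also held the 3 chitinases with the highest mean FPKM over all 6 libraries, which were not called. Chitinase-like protein 1, LOC103932072, made up 66.2% of the summed FPKM of the family, with 812, 990 and 821 FPKM under B deficiency and 917, 916 and 913 FPKM in the controls. The control libraries were nearly equal and lay between B deficiency library 2 and the other two, so the groups overlapped (log2 fold change -0.07, limma adjusted p = 0.552). Without B deficiency library 2 the difference was -0.16 with an adjusted p of 0.000538, still under the minimum fold change. Chitinase-like protein 2, LOC103959326, had 59.1, 67.7 and 57.7 FPKM under B deficiency against 77.6, 72.5 and 71.9 FPKM in the controls, with no overlap and a log2 fold change of -0.27 (limma adjusted p = 0.0325). The chitinase 5-like gene LOC103957728 had 94.5, 222 and 90.8 FPKM under B deficiency and 90.8, 76.4 and 100 FPKM in the controls. Library 2 alone was high, at 240% of the mean of libraries 1 and 3, and the log2 fold change of 0.48 (limma adjusted p = 0.314) was 0.06 without it.

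Of the 15 GH18 members, 4 were listed at 0 throughout and 6 were tested. The gene for chitinase domain-containing protein 1, LOC103929342, had 1.14, 1.60 and 1.44 FPKM under B deficiency and 0.47, 0.77 and 0.67 FPKM in the controls, without overlap. It was called at a log2 fold change of 1.03 ± 0.278 (SE, limma adjusted p = 0.0314), just past the minimum. The call held without B deficiency library 1 and was lost when any other library was left out, at log2 fold changes between 0.86 and 1.16 and adjusted p between 0.05002 and 0.0871. The acidic chitinase LOC125471137 was the member with the lowest fold change, at 40.3, 32.5 and 37.9 FPKM under B deficiency against 59.2, 57.3 and 54.8 FPKM in the controls. All B deficiency libraries were below all controls, and the log2 fold change of -0.63 had a limma adjusted p of 0.0019, which is not a call at the minimum fold change. Without that minimum, 7 chitinases were higher and 4 lower. The lower ones were this gene, the chitinase-like protein 2 genes LOC103959326 and LOC103940496, and the GH18 gene LOC103953829.

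The summed FPKM of all chitinases was 1294, 1569 and 1301 in B deficiency and 1337, 1305 and 1306 in the control. These sums overlapped. B deficiency library 2 was the highest library, as it was in LOC103932072 and in LOC103957728. Without LOC103932072, the other chitinases summed to 482, 579 and 480 FPKM under B deficiency and 420, 390 and 393 FPKM in the controls, and the groups did not overlap. In B deficiency library 2, 222 FPKM of the 579 were those of LOC103957728, which was not called.

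**Figure D2:**
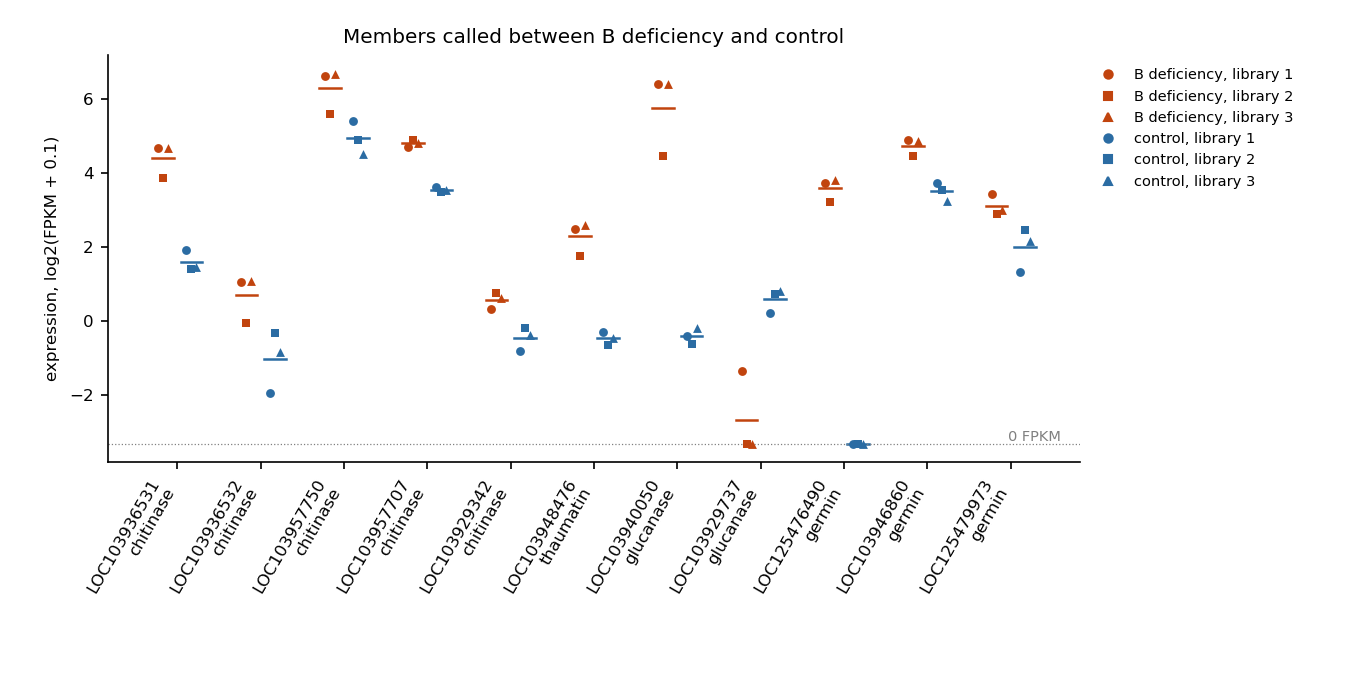
Expression of the 11 members called, as log2(FPKM + 0.1), with a point per library and a bar at the group mean of these log values; B deficiency stands left of control for each gene. The dotted line marks 0 FPKM. In 8 of the 10 members called higher, library 2 (square) is the lowest of the B deficiency libraries, as in LOC103940050.

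Among the thaumatin-like proteins and osmotins, 1 of the 26 members tested rose and 0 fell, which is 3.85% called beside 8.19% over all genes tested. Without B deficiency library 2, 1 was called. The call was made on the thaumatin-like gene LOC103948476, with 5.53, 3.30 and 5.93 FPKM under B deficiency and 0.71, 0.54 and 0.63 FPKM in the controls. Every B deficiency library was several times above the controls, with library 2 again the lowest of the 3. The mean was 4.92 ± 1.42 FPKM under B deficiency and 0.627 ± 0.085 FPKM in the controls (SD, n = 3 each), with a log2 fold change of 2.75 ± 0.258 (SE, limma adjusted p = 0.000392), and the call held with each library left out.

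The 3 members with the highest mean FPKM over all 6 libraries were not called. The thaumatin-like protein 1b gene LOC103953476 had 55.1, 54.7 and 55.5 FPKM under B deficiency and 39.1, 39.4 and 39.6 FPKM in the controls, a small difference with very tight libraries (log2 fold change 0.48, limma adjusted p = 0.00045). The osmotin-like gene LOC103949019 had 62.8, 56.7 and 60.9 FPKM under B deficiency against 53.6, 50.8 and 49.8 FPKM in the controls (log2 fold change 0.23, limma adjusted p = 0.0308). The other osmotin-like gene, LOC103945033, had 73.6, 38.2 and 69.6 FPKM under B deficiency and 38.7, 44.3 and 42.5 FPKM in the controls. B deficiency library 2 was below every control library there while libraries 1 and 3 were above, so the groups overlapped. The log2 fold change was 0.47 (limma adjusted p = 0.175), and 0.78 without library 2 (adjusted p = 0.000239).

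The lowest fold change of the family was that of a second thaumatin-like protein 1b gene, LOC103967804, with 2.54, 2.91 and 3.01 FPKM under B deficiency and 5.06, 6.32 and 5.31 FPKM in the controls. The groups did not overlap and the log2 fold change was -0.95 (limma adjusted p = 0.00246). It passed the minimum fold change, barely, without B deficiency library 3 or without control library 1 (-1.02). With B deficiency library 1 left out, 3 members of the family were called, all as higher, and with B deficiency library 3, control library 1 or control library 3 left out 2 were called, of which 1 was higher and 1 lower. The thaumatin-like protein 1a gene LOC103935635, chosen after its values were seen, had 0.36, 1.69 and 0.70 FPKM under B deficiency and 0.20, 0.18 and 0.09 FPKM in the controls, with the second largest fold change of the family, 1.79, and a limma adjusted p of 0.0578. It passed the minimum of 0.5 FPKM only through B deficiency, where library 2 was the highest. Without the minimum fold change, 4 members were higher and 4 lower in B deficiency. The 32 members described as thaumatin-like summed to between 253 and 257 FPKM under B deficiency and between 253 and 255 FPKM in the controls. All 34 members carried the thaumatin domain.

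Of the 55 glucan endo-1,3-beta-glucosidases tested, 1 rose and 1 fell, which is 3.64% called beside 8.19% over all genes tested. Without B deficiency library 2, 2 were higher and 1 was lower, the added one being LOC125476486. The gene that rose, LOC103940050, had the largest called fold change of all members with a control value above 0. It had 84.3, 21.8 and 83.7 FPKM under B deficiency and 0.66, 0.55 and 0.77 FPKM in the controls. The gene was thus near the lower end of the tested range in the control and the most abundant glucanase in B deficiency libraries 1 and 3, while library 2 held only 25.9% of their mean. The mean was 63.3 ± 36.0 FPKM under B deficiency and 0.66 ± 0.11 FPKM in the controls (SD, n = 3 each), a ratio of 95.9 between the means. The log2 fold change was 6.15 ± 0.496 (SE, limma adjusted p = 0.000202), between 5.83 and 6.80 with each library left out, and 5.05 with a pseudocount of 1.

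The gene that fell, described as glucan endo-1,3-beta-glucosidase BG4, LOC103929737, was low in every library. It had 0.29, 0 and 0 FPKM under B deficiency and 1.05, 1.56 and 1.65 FPKM in the controls. The groups did not overlap, and the limma adjusted p was 0.00837, but the gene passed the minimum of 0.5 FPKM only through the controls. The fitted log2 fold change of -3.25 depends on the pseudocount, since it was -1.14 with a pseudocount of 1. Both called glucanases have the catalytic GH17 domain and lack the X8 domain, a carbohydrate-binding domain that binds callose.

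Of the 73 members, 42 had a GH17 and an X8 domain, 26 had GH17 alone, 4 had X8 alone and 1 had neither. Among those with both domains 37 were tested and 0 were called, with a median log2 fold change of 0.07. Without the minimum fold change, limma put 6 of these 37 higher and 4 lower at an adjusted p under 0.05. Among those with GH17 alone 13 were tested, of which 1 was higher and 1 lower, with a median of -0.08. The glucanases with the highest mean FPKM over all 6 libraries were glucan endo-1,3-beta-glucosidase 12-like LOC125474940, the X8 protein LOC125477844 and glucan endo-1,3-beta-glucosidase 14 LOC103939428. LOC125474940 had 60.4, 77.9 and 58.9 FPKM under B deficiency and 63.4, 59.4 and 61.5 FPKM in the controls, with overlap (log2 fold change 0.09). LOC125477844 had 54.3, 63.9 and 57.0 FPKM under B deficiency and 58.4, 63.0 and 63.5 FPKM in the controls, also with overlap (-0.08). LOC103939428 was higher in every B deficiency library, with 54.7, 48.6 and 50.7 FPKM against 41.4, 44.1 and 40.5 FPKM in the controls (0.29, limma adjusted p = 0.0167).

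Members with tight libraries moved in both directions below the minimum fold change. The following 3 were chosen after their values were seen. The probable glucan endo-1,3-beta-glucosidase A6 gene LOC103961391 had 27.7, 34.7 and 28.1 FPKM under B deficiency and 15.3, 15.7 and 15.9 FPKM in the controls (log2 fold change 0.94, limma adjusted p = 0.000581). LOC103963127, described as glucan endo-1,3-beta-glucosidase 7, was higher, with 36.4, 37.1 and 36.5 FPKM under B deficiency and 22.1, 23.5 and 22.4 FPKM in the controls. LOC103926989, described as 7-like, was lower, with 25.8, 20.9 and 22.7 FPKM under B deficiency and 41.5, 42.4 and 42.7 FPKM in the controls. Their log2 fold changes were 0.69 and -0.87, so 2 genes with nearly the same description had opposite directions. Without the minimum fold change, 8 glucanases were higher and 6 lower.

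The summed FPKM of all glucanases was 782, 750 and 762 in B deficiency and 696, 713 and 698 in the control, without overlap. Without LOC103940050 the sums were 697, 728 and 678 in B deficiency and 695, 712 and 697 in the control, with overlap. Library 2 was still above every control library without this gene, while library 1 lay among the control libraries and library 3 below them.

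**Figure D3:**
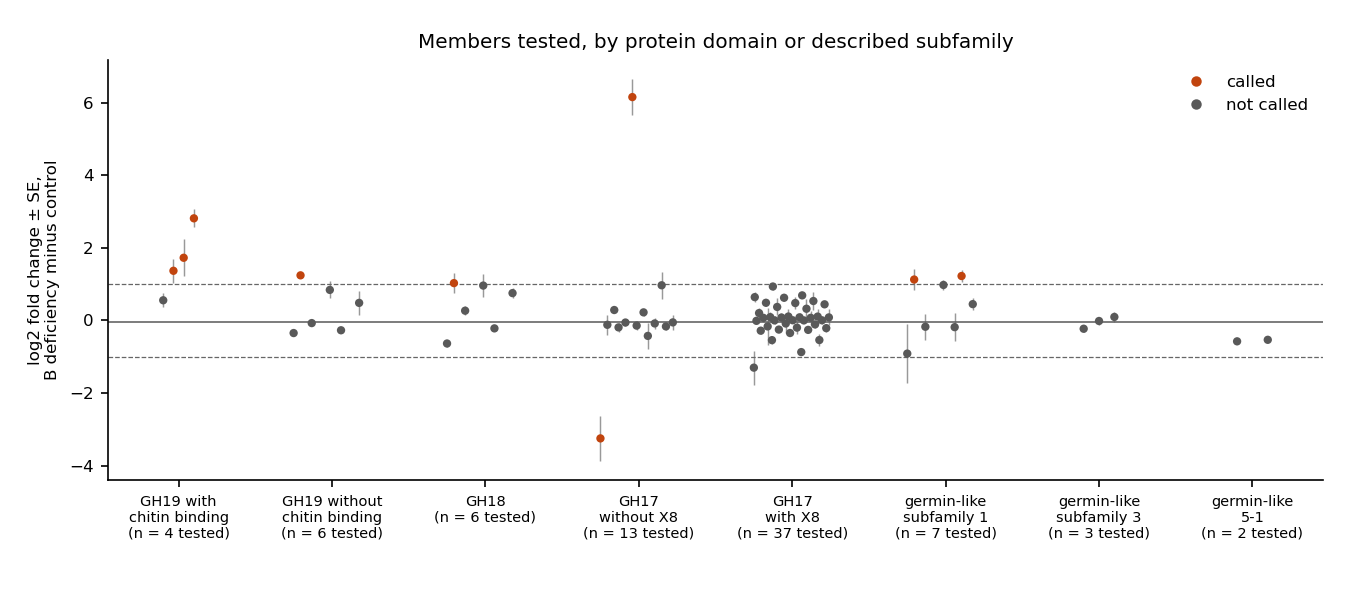
Log2 fold changes with their standard errors, B deficiency minus control, for members tested, grouped by protein domain or by the subfamily in the description. Dashed lines mark the minimum fold change, and the solid line the median over all genes tested. The 4 GH19 chitinases with a chitin-binding domain all lie above 0 and 3 are called, none of the 37 glucanases with GH17 and X8 is called, and both germin-like 5-1 genes lie below 0. Among the 3 called, LOC103936532 passed the minimum of 0.5 FPKM only through B deficiency.

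Of the 44 members with germin in the description, 40 were germin-like proteins, all with a cupin domain. The other 4 matched the rule by letters only, since 2 are germinal center kinases, which were tested and not called, and 2 are DELAY OF GERMINATION proteins, which were listed at 0. Of the 17 members tested, 3 rose and 0 fell, which is 17.6% called beside 8.19% over all genes tested. Without B deficiency library 2, 4 were called, all higher. The largest difference was in the putative germin-like protein 2-1 gene LOC125476490, with 13.1, 9.15 and 14.0 FPKM under B deficiency, while it was listed at 0 FPKM in all 3 control libraries. No fold change is given for it. It passed the minimum of 0.5 FPKM only through B deficiency, and its limma adjusted p of 1.2e-05 rests on control values with no spread. It was 1 of only 2 tested genes among the 12 described as 2-1 or 2-3. The count of 3 includes this gene, whose rise the minimum favoured. Without it and the 2 kinases, 2 of the 14 germin-like proteins tested were called, which is 14.3%.

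Germin-like proteins of subfamily 1 gave the other calls. Of the 10 in the annotation 7 were tested, with a median log2 fold change of 0.45. Of these 7, 2 rose and 4 were higher without overlap, while 4.37% of all genes tested were called higher and 18.5% were higher without overlap. The summed FPKM of the 10 subfamily 1 genes was 85.0, 75.5 and 80.3 in B deficiency and 46.8, 43.6 and 44.6 in the control. LOC103946860, subfamily 1 member 13, had 29.3, 21.8 and 29.2 FPKM under B deficiency against 13.2, 11.6 and 9.40 FPKM in the controls. All B deficiency libraries were well above the controls (log2 fold change 1.22 ± 0.159 SE, limma adjusted p = 0.00161), and the call held with each library left out. LOC125479973, of the same description, had 10.8, 7.37 and 7.86 FPKM under B deficiency and 2.42, 5.37 and 4.39 FPKM in the controls. It was called at 1.13 ± 0.291 (SE, limma adjusted p = 0.0267), but not without B deficiency library 1 (log2 fold change 0.96), B deficiency library 3 (adjusted p = 0.0602), control library 1 (0.80) or control library 3 (adjusted p = 0.0633). A further gene with this description, LOC103940625, chosen after its values were seen, had 29.8, 22.5 and 28.0 FPKM under B deficiency and 14.2, 11.3 and 15.1 FPKM in the controls. Its log2 fold change of 0.98 (limma adjusted p = 0.00269) lay just under the minimum, and it was called without B deficiency library 2 (1.10). LOC125479976, the member with the lowest fold change, had 0.38, 0 and 0.91 FPKM under B deficiency and 0.64, 0.49 and 0.64 FPKM in the controls, with overlap (-0.91, limma adjusted p = 0.449).

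The 3 germin-like genes with the highest mean FPKM over all 6 libraries were lower in B deficiency, each by less than the minimum fold change. The germin-like protein 5-1 gene LOC103955832 had 310, 331 and 298 FPKM under B deficiency and 446, 451 and 458 FPKM in the controls. The groups were far apart compared with their spread, at 313 ± 16.7 FPKM under B deficiency and 452 ± 6.06 FPKM in the controls (SD, n = 3 each; log2 fold change -0.53, limma adjusted p = 0.000489). The second 5-1 gene, LOC125476706, had 236, 258 and 232 FPKM under B deficiency and 365, 354 and 361 FPKM in the controls, and differed by a similar amount (-0.57, limma adjusted p = 0.000409). The subfamily T member 2 gene LOC125478913 had 99.4, 76.2 and 98.0 FPKM under B deficiency against 172, 160 and 171 FPKM in the controls (-0.89, limma adjusted p = 0.001). These 3 genes were the only germin members that were lower at an adjusted p under 0.05, beside 15.4% of all genes tested.

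The germin family as a whole was the 1 family with a lower sum in B deficiency without overlap. Its summed FPKM was 894, 867 and 868 in B deficiency and 1171, 1155 and 1179 in the control, and the 5-1 genes held 546, 589 and 530 FPKM of it under B deficiency and 812, 805 and 819 FPKM in the controls. The median fold change of the family was near 0 at the same time, and with the gene listed at 0 in the control left out it was -0.10 over 14 germin-like genes. The genes described as 9-1 to 9-3 were nearly silent, since 8 of 11 were listed at 0 and 0 reached the minimum for the test. The germin-like 9-3 gene LOC125477263, chosen after its values were seen, lay under that minimum, with 0 FPKM in all B deficiency libraries and 1.15, 1.33 and 0.38 FPKM in the controls. It was called lower in the fit without a minimum (limma adjusted p = 0.00253).

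**Figure D4:**
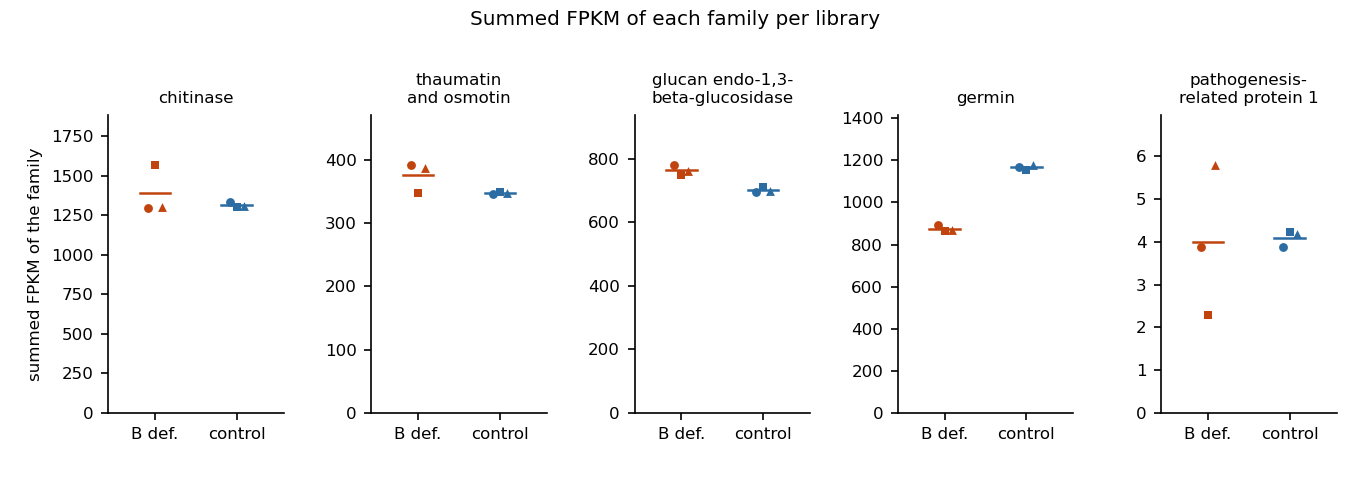
Summed FPKM of each family per library, with axes that start at 0, circles, squares and triangles for libraries 1, 2 and 3, and bars at the group mean. B deficiency stands left of control. The germin sum is lower in all 3 B deficiency libraries (867 to 894 against 1155 to 1179), the glucanase sum is higher, and the other 3 families overlap.

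None of the 3 pathogenesis-related proteins 1 tested was called by limma, 0 of 3 had an adjusted p under 0.05, and all 3 overlapped between the groups. Of the 11 members, all with a CAP domain, 6 were listed at 0 in every library. LOC103967069, the most abundant, had only 2.37, 0.92 and 3.75 FPKM under B deficiency and 2.32, 2.32 and 2.09 FPKM in the controls (log2 fold change -0.13, limma adjusted p = 0.851), and the sign turned without B deficiency library 2 (0.40). LOC103934346 had 0.96, 0.21 and 1.05 FPKM under B deficiency and 0.58, 0.96 and 1.34 FPKM in the controls (-0.49, limma adjusted p = 0.569), and its sign turned as well (0.12). LOC125480647 had 0.43, 0.24 and 0.85 FPKM under B deficiency and 0.97, 0.94 and 0.76 FPKM in the controls (-0.83, limma adjusted p = 0.195). B deficiency library 2 was the lowest of its group in all 3. The family summed to 3.87, 2.29 and 5.80 FPKM under B deficiency and 3.87, 4.22 and 4.19 FPKM in the controls. At such levels a few fragments decide a value, and the B deficiency sums lay on both sides of the control sums.

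B deficiency library 2 was thus low in a set of members. Among the 10 members called higher it was the lowest of the 3 B deficiency libraries in 8 (80.0%), with a median of 62.7% of the mean of libraries 1 and 3. Over all 1229 genes called higher it was the lowest in 443 (36.0%) and the highest in 615, with a median of 108%. The 2 called members in which library 2 was the highest were LOC103957707 and LOC103929342.

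Other genes of defence proteins and of chitin and callose biology were counted from lists of descriptions. PR-4 and hevein-like proteins, which bind chitin, summed to 47.9, 15.4 and 46.1 FPKM under B deficiency and 14.4, 11.5 and 12.2 FPKM in the controls, with 1 of 4 genes tested and 0 called by limma (log2 fold change 1.34). A single gene, LOC125473856, made up 97.5% of this sum. Here libraries 1 and 3 were again high, and library 2 was close to the control. Of 16 tested genes of LysM proteins, the class that includes receptors of chitin fragments, 2 rose and 1 fell. Over all genes tested, 4.37% were called higher and 3.83% lower. The lysM domain receptor-like kinase 3 gene LOC125468101 had 7.66, 3.85 and 7.08 FPKM under B deficiency and 1.98, 1.62 and 1.33 FPKM in the controls (log2 fold change 1.81, limma adjusted p = 0.00346). Another gene of that description, LOC103956736, fell, with 3.92, 5.92 and 3.53 FPKM under B deficiency against 10.4, 8.26 and 9.88 FPKM in the controls (-1.11, limma adjusted p = 0.00651).

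For the single genes that rose in the next 3 lists, the share called higher over all genes tested was 4.37%. Of 14 tested callose synthases, which make callose at the plasma membrane, 0 were called by limma, and their log2 fold changes lay between -0.34 and 0.60. Of 9 tested plasmodesmata callose-binding proteins 1 rose, LOC103947911, with 6.19, 7.20 and 5.01 FPKM under B deficiency and 1.80, 2.01 and 2.00 FPKM in the controls (1.60, limma adjusted p = 0.000525). Of 20 tested regulators of salicylic acid defence 1 rose, which is 5.0% and close to the 4.37% called higher over all genes tested. It was NIM1-INTERACTING 2 LOC125471342, with 21.1, 10.99 and 13.7 FPKM under B deficiency and 5.68, 9.56 and 3.96 FPKM in the controls (1.28, limma adjusted p = 0.0311). Of 9 tested proteinase inhibitors 1 rose, the cysteine proteinase inhibitor B LOC103962594, with 8.17, 5.32 and 9.29 FPKM under B deficiency and 3.25, 4.52 and 2.06 FPKM in the controls (1.22, limma adjusted p = 0.0253).

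Defensins, snakins and lipid transfer proteins are small cysteine-rich proteins. Of 14 tested defensins and snakins 1 fell and 0 rose, which is 7.14% called beside 8.19% over all genes tested, while the list summed to 995, 1290 and 990 FPKM under B deficiency and 920, 913 and 920 FPKM in the controls. LOC103943155 made up 51.0% of this sum. The gene that fell was the gibberellin-regulated protein 14-like gene LOC103936443, with 5.75, 10.1 and 4.30 FPKM under B deficiency and 14.0, 13.7 and 12.9 FPKM in the controls (-1.09, limma adjusted p = 0.0248). Of 29 tested lipid transfer proteins 4 fell and 0 rose, while 3.83% of all genes tested were called lower, with a median log2 fold change of -0.59. Among the 4 was the GPI-anchored 2-like gene LOC103937647, with 4.85, 6.44 and 5.89 FPKM under B deficiency against 16.7, 14.2 and 14.7 FPKM in the controls (-1.40, limma adjusted p = 0.000311). The lipid transfer list, the most abundant of these lists, summed to between 6150 and 6492 FPKM under B deficiency and between 7495 and 7682 FPKM in the controls. A single gene, LOC103942762, made up 62.5% of this sum.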

How the data were processed

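Root tip RNA was sequenced from 3 B deficiency and 3 control libraries, grouped by the sample labels. According to the paper's methods, reads were cleaned and aligned by STAR against P. bretschneideri, and the authors deposited FPKM values that RSEM estimated. The submitters' processing notes instead name HISAT2, Cufflinks 2.2.1 and DESeq2 and the mouse builds mm8 and mm9, and this difference was not resolved. The genes listed have plant descriptions, such as a RuBisCO small chain, so the deposited values are not those of mouse genes. No source used here gives the annotation release. FPKM carry no read counts, so counting intervals are not given, and 4 deposited columns of group means and ratios were not used. Control columns were assigned through the replicate number in the sample titles.

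Log2(FPKM + 0.1) was fitted with limma 3.58.1 (R 4.3.3, eBayes with trend, 2-sided) as B deficiency minus control over 28129 genes (mean FPKM of 0.5 or more), with Benjamini-Hochberg adjustment over all of them. The minimum absolute log2 fold change was 1 and the adjusted p threshold 0.05, and the fit was tested on simulated data. An exact permutation test of 3 against 3 libraries cannot go below p = 0.1. The members and lists were chosen with earlier results of these data known. Per family, the genes named were up to 8 called members without overlap, the 3 with the highest mean FPKM and the largest rise and fall; in the other lists they were the called members with the largest rise and fall. FPKM values give the depth of a library only relative to the others. Alternatives were a pseudocount of 1, no minimum or a minimum of 2 FPKM, median-of-ratios scaling, no trend, no minimum fold change, the replicate number as a block and each library left out. Sequences, promoters and coordinates were not used here. Tables were made with Python 3.11.15, numpy 2.4.6 and pandas 2.3.3.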

Additional observations from a re-analysis of the deposited data

How the results depend on the processing

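The 29 genes named by the rule included 11 called members, and 20 of the 29 kept their direction and whether they were called under every alternative run for them. The adjusted p alone crossed 0.05 in some of these 20, for example in LOC103932072 (0.552, and 0.000538 without B deficiency library 2). With a minimum of 2 FPKM, 1506 genes were called over all genes (833 higher and 673 lower), with 3 chitinases and 1 glucanase among them, as fewer genes of low level were tested. With a pseudocount of 1, 3 chitinases were called, and LOC103936532 (0.84), LOC103929342 (0.55) and LOC125479973 (0.96) lost their calls. Without a minimum FPKM, 2 thaumatin-like members and 4 glucanases (3 higher and 1 lower) were called. Without a minimum fold change, the called members were 11 chitinases (7 higher and 4 lower), 8 thaumatin-like proteins and osmotins (4 and 4), 14 glucanases (8 and 6) and 7 germin members (4 and 3). Leaving out single libraries gave 1889 to 2545 called genes over all genes, 2 to 4 chitinases, 1 to 3 thaumatin-like proteins and osmotins, 2 to 3 glucanases, 2 to 4 germin members and 0 pathogenesis-related proteins 1. Without control library 3, 2 chitinases were called. Without B deficiency library 2 the sign turned for 4 genes that were called in no fit, and their values over the fits with a library left out ranged between -1.65 and 0.021 for LOC125479976, between -0.042 and 0.16 for LOC125474940, between -0.56 and 0.40 for LOC103967069 and between -0.82 and 0.12 for LOC103934346. The causes of these changes were not tested beyond what the settings themselves remove.

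Libraries with the same replicate number did not deviate together (correlations of 0.04, 0.03 and -0.0047), so no shared effect of the number was seen. With 3 libraries per group this cannot show whether the samples were grown or taken in pairs. With the replicate number as a block, 2176 genes were called over all genes, with 4 chitinases, 1 thaumatin-like protein, 2 glucanases and 2 germin members. LOC103936532 (adjusted p = 0.0820) and LOC125479973 (0.0580) were not called in that fit, nor without the trend (0.0607 and 0.0545). Close to 0.5 FPKM a value rests on few fragments.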

Other observations

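Genes that carry the protein domains of these families under other descriptions were looked at after the values of the members had been seen. Of 12 further genes with a GH18 domain, 3 were tested and 2 rose in B deficiency, while 4.37% of all genes tested were called higher. Both passed the minimum of 0.5 FPKM only through B deficiency, and 8 of the 12 had a value but stayed under it. The minimum itself thus favoured a rise among the 3 tested, and the count says little about these genes as a group. LOC103949120, described as chitotriosidase-1-like, had 5.19, 2.63 and 4.66 FPKM under B deficiency and 0.25, 0.56 and 0.19 FPKM in the controls, a log2 fold change of 3.33 ± 0.395 (SE, limma adjusted p = 0.00107). LOC103955950, described as cysteine-rich receptor-like protein kinase 25, had 3.06, 2.07 and 3.00 FPKM under B deficiency against 0.02, 0.09 and 0.02 FPKM in the controls (4.31 ± 0.371 SE, limma adjusted p = 0.000265). In both the groups did not overlap and B deficiency library 2 was the lowest of its group.

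Of 8 further genes with a thaumatin domain, 6 were tested, all 6 were higher in B deficiency without overlap, and 1 rose past the minimum fold change, while 18.5% of all genes tested were higher without overlap. It was LOC103937247, described as protein P21-like, with 4.50, 3.19 and 4.94 FPKM under B deficiency and 1.99, 2.57 and 1.19 FPKM in the controls (1.14 ± 0.294 SE, limma adjusted p = 0.0271). Their median log2 fold change was 0.83, beside 0.12 for the members described as thaumatin-like or osmotin. Together they summed to between 25.2 and 27.1 FPKM under B deficiency and between 15.0 and 15.5 FPKM in the controls.

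Of 11 further genes with a CAP domain, 5 were tested and 0 were called by limma. Their summed FPKM was 268, 139 and 257 in B deficiency and 180, 185 and 180 in the control, so that library 2 lay below the control libraries and libraries 1 and 3 above them. LOC125474061 made up 72.0% of this sum. Of 6 further genes with a GH17 domain 3 were tested and 0 were called by limma.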
